A study of Mus musculus with 22 samples.

Results

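Dentate gyrus granule cells, the principal excitatory neurons of the dentate gyrus, were compared with 3 other kinds of neuron through the mRNA attached to their ribosomes. The 3 dentate libraries are 3 of the 22 in the series, and they were set against the mean of layer V cortical neurons, cerebellar granule cells and inhibitory interneurons, with 3 libraries each and 1 library per biological replicate, the one from batch 1 where a replicate had been sequenced in both batches. All mice were 6 weeks old and carried a single floxed copy of Rpl22 (Rpl22 Fl/+) whose recombination by Cre adds an HA tag to this ribosomal protein, so that tagged ribosomes and their mRNA can be pulled down from a mixed tissue with an antibody to HA. Dentate granule cells and layer V neurons came from the same driver, Rbp4-Cre, and were separated by dissecting hippocampus or cortex. Cerebellar granule cells came from the cerebellum of Gabra6-Cre mice, and interneurons came from the hippocampus of Dlx6a-Cre mice, with 2 mice pooled for each interneuron library. The labels give 2 dentate, 2 layer V and 1 cerebellar granule cell mouse as female, 1 interneuron library as male, 2 interneuron libraries as pools of both sexes, and the other mice as male. The 9 excitatory libraries were sequenced in batch 1 and the 3 interneuron libraries in batch 2, so that within these libraries the batch and the interneuron group cannot be told apart. For each excitatory type 1 replicate was also sequenced in batch 2, and those libraries entered alternative fits only.

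Granule cells of the dentate gyrus receive cortical input on their spiny dendrites and send it on to CA3 through mossy fibres, whose large terminals release glutamate and zinc and have a low initial release probability that rises steeply with repeated firing. They fire sparsely, and a subset is born in adult life. Prox1, a homeobox transcription factor, is needed for a hippocampal neuron to become and remain a granule cell.

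Prox1 (ENSMUSG00000010175, chr1:190118035-190170714, GRCm38, minus strand) was measured at 597, 573 and 494 counts per 1000000 (CPM, with library sizes scaled by edgeR's TMM factors) in the 3 dentate libraries. It lay at 97.7, 103 and 106 CPM in cerebellar granule cells, at 40.6, 47.6 and 45.9 CPM in interneurons and at 1.91, 1.27 and 2.32 CPM in layer V neurons. No dentate library overlapped any other, and Prox1 was 5.43-fold above the nearest type, the cerebellar granule cells (edgeR adjusted p = 6.9e-09). The 17 dentate granule cell markers summed to between 4110 and 4718 CPM in dentate libraries and to between 229.8 and 667.8 CPM in the 9 others. Markers of layer V neurons, which share the Rbp4-Cre driver, were not low: the 10 listed summed to 511.8 to 550.0 CPM in dentate libraries against 1001 to 1048 CPM in layer V neurons. The same list summed highest in cerebellar granule cells, at 1944.7 to 1970.6 CPM, so the sum is not particular to layer V neurons. Of these markers, 5 were higher and 4 lower in dentate libraries than in the mean of the other types (50.0% and 40.0%, against 16.6% and 9.71% of all genes). Tle4, a corepressor of deep cortical layers, was above every type. Bcl6, a transcriptional repressor, was at 161, 165 and 151 CPM against 63.4 to 68.3 CPM in layer V neurons and 194 to 259 CPM in cerebellar granule cells. Fezf2, which specifies layer V neurons, was at 13.2, 15.7 and 18.3 CPM against 109 to 111 CPM in them. Gabra6, the GABA-A receptor subunit of cerebellar granule cells, did not exceed 0.0908 CPM in dentate libraries against 3246 to 3342 CPM in cerebellar ones, and Gad2, a GABA-synthesizing enzyme, did not exceed 13.9 CPM against 1200 to 1308 CPM in interneurons. Gad1, its sister enzyme, was present in dentate libraries at 198, 197 and 181 CPM, above the 6 layer V and cerebellar libraries and far below the 2606 to 2711 CPM of interneurons.

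Depth ranged from 38270477 to 66185898 estimated counts over the 12 libraries, and replicates of the dentate group correlated at 0.9878 or more over log2 CPM, against 0.8417 to 0.9406 with libraries of other types. Dentate replicate 3 stood somewhat apart. The summed level of 6 CA1 pyramidal markers was 287.0, 372.5 and 515.9 CPM in dentate replicates 1, 2 and 3, and Wfs1 in this list was at 78.5, 113 and 222 CPM. Replicate 3 held the highest dentate value for 319 of the 454 genes that were lower in dentate cells than in every other type (70.3%, against 35.0% of all genes tested). For the 796 genes above every other type it held the highest dentate value in 112 (14.1%, against the same 35.0%). Replicate 3 was also the only dentate library labelled male, so its offset and sex cannot be told apart. Choroid plexus markers summed to 83.5, 116.2 and 146.2 CPM in dentate libraries and to 82.4 to 132.3 CPM in interneurons, both from hippocampus, but did not exceed 8.9 CPM in the others. Among them Ttr, the thyroxine carrier secreted by the choroid plexus, was at 40.9, 69.8 and 94.9 CPM in dentate libraries. Oligodendrocyte markers summed to 3381 to 3622 CPM in interneuron libraries and to 434.9 to 542.7 CPM in dentate ones. The part of these other cells in the differences below was not tested. Endothelial and mural markers summed to 66.9, 29.1 and 42.1 CPM in dentate libraries and to 5.7 to 48.2 CPM elsewhere, and Flt1, of endothelial cells, was called above every type with 21, 7.44 and 11.6 CPM. In such bulk samples fewer cells of a type and less RNA per cell cannot be told apart.

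**Figure D1:**
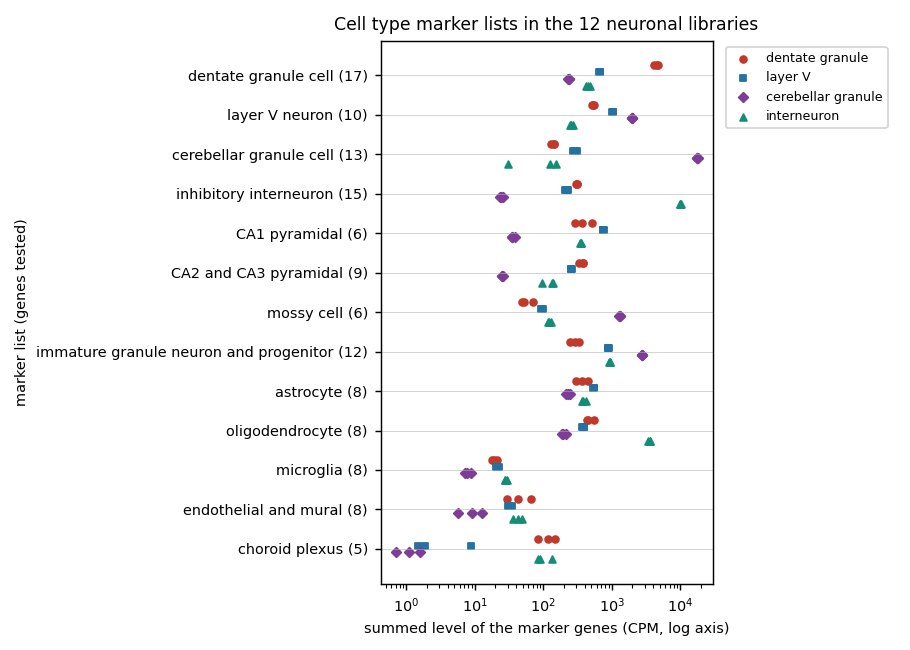
Summed CPM (log axis) of 13 lists of cell type markers in the 12 neuronal libraries, with 1 point per library and the number of genes in each list in brackets. The dentate markers lie between 4110 and 4718 CPM in the 3 dentate libraries, and the CA1 list spreads from 287.0 to 515.9 CPM among them.

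Of 18587 genes tested, 3083 (16.6%) were higher and 1804 (9.71%) lower in dentate granule cells than in the mean of the other types, with a Benjamini-Hochberg adjusted p no higher than 0.05 in edgeR's quasi-likelihood test and a 2-fold change or more. A mean of 3 types can be moved by a single one of them: Gad1 counted as higher than the mean although it was 13.9-fold below interneurons, and Neurod1, a factor of granule neurons, although it was 21.3-fold below cerebellar granule cells. A stricter count therefore asked for the same 2-fold change against each type, and 796 genes (4.28%) were higher and 454 (2.44%) lower. The 3 dentate libraries did not overlap the 9 others in 2377 genes on the higher side (12.8%) and 2280 on the lower side (12.3%). Against single types, 2436 genes (13.1%) were higher than in layer V neurons, 5320 (28.6%) than in cerebellar granule cells and 2458 (13.2%) than in interneurons, and 2706 (14.6%), 2834 (15.2%) and 3097 (16.7%) were lower. Of the 796 genes above every type, the nearest type was layer V for 402, interneurons for 307 and cerebellar granule cells for 87. They comprised 661 protein-coding genes and 101 lncRNA genes (4.36% and 4.48% of those tested), and the 454 genes below every type comprised 370 and 72 (2.44% and 3.2%). Of the 796 higher genes, 297 were at least 4-fold above every type. Without dentate replicate 3 the counts against each type were 807 higher and 544 lower, with 759 and 432 genes shared.

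The 15 genes with the largest change among those above every type, at 10 CPM or more in dentate libraries, were led by Dsp (chr13:38151294-38198577, GRCm38, plus strand). The ranking used the fitted change against the mean of the other types. That change depends on the prior count where cerebellar libraries held few or no counts. Dsp encodes desmoplakin, which anchors intermediate filaments at the desmosomes of epithelium and heart. It was at 371, 342 and 339 CPM in dentate libraries, at 2.11 to 3.67 CPM in interneurons and below 1 CPM in all layer V and cerebellar libraries, 111-fold above the nearest type (edgeR adjusted p = 5.8e-09). Lct, lactase, the enzyme of the gut brush border, was at 239, 224 and 212 CPM and did not exceed 2.28 CPM elsewhere, a 106-fold difference from the nearest type. Pla2g2f, a secreted phospholipase A2, was at 16.5, 19.2 and 14.4 CPM and lay between 0 and 0.171 CPM in the 9 other libraries. Krt2, a keratin, was at 33.6, 35.2 and 30.7 CPM against 4.03 to 4.94 CPM in layer V neurons, the nearest type. Capn3, a calcium-dependent protease of muscle, was at 45.8, 48.1 and 45.2 CPM and 17.2-fold above layer V neurons (edgeR adjusted p = 5.7e-14).

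Rtl3, a gene descended from a retrotransposon Gag sequence, was at 25.3, 28.1 and 27.5 CPM in dentate libraries and at most 0.247 CPM in interneurons, with no count in cerebellar granule cells. Syna, the envelope-derived syncytin that fuses placental cells, was at 14.3, 12.1 and 14 CPM and did not exceed 0.278 CPM elsewhere. No count was assigned to Rtl3, Syna, Vwa3b or Ntn5 in any cerebellar library. With 3 counts per library as a floor, they were at least 456-fold, 228-fold, 857-fold and 333-fold higher in dentate granule cells than in cerebellar ones. The fitted fold changes of such genes depend on the prior count and are no bound.

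C1ql2, a C1q-like protein that granule cells release at mossy fibre terminals, was at 578, 532 and 476 CPM against 10.6 to 17.4 CPM in layer V neurons, the nearest type (36.7-fold, edgeR adjusted p = 3.7e-09). Smoc2, a calcium-binding matrix protein, was at 89.1, 96.5 and 84.0 CPM and 6.48-fold above layer V neurons, and Olfml2b, an olfactomedin-like secreted protein, was at 101, 106 and 76.1 CPM and 17.8-fold above them. Ntn5, of the netrin family, was 5.37-fold above layer V neurons, and Glp2r, the receptor for glucagon-like peptide 2, was 8.85-fold above them with 23.8, 21.3 and 20.2 CPM in dentate libraries. The remaining leading genes were Vwa3b, which was 36.3-fold above the nearest type, Parvg, an adaptor of the parvin family (19.1-fold), and Plekha2, which binds membrane phosphoinositides (17.8-fold). Dentate and other libraries did not overlap for any of the 15, against 12.8% of all genes on this side, which is a description, since the genes were chosen by this same change.

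The 15 leading genes on the lower side had a mean of 10 CPM or more in each of the other types. EU599041, a lncRNA, had 1.07, 1.66 and 4.09 CPM in dentate libraries, 6.98 to 18.1 CPM in interneurons and more than 300 CPM in all layer V and cerebellar libraries. Plcb4, a phospholipase C that acts downstream of Gq-coupled receptors, had 3.61, 2.60 and 5.20 CPM against 41.2 to 44.6 CPM in layer V neurons, the nearest type, and 552 to 593 CPM in cerebellar granule cells. Elavl2, a neuronal RNA-binding protein, had 8.88, 10.8 and 14.2 CPM and was 7.09-fold below layer V neurons (edgeR adjusted p = 8.8e-09). Reln, the secreted protein reelin that guides layering of the cortex, had 10.8, 13.5 and 11.4 CPM, and its distance from layer V neurons was the smallest of the 15 at 2.17-fold.

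Syt2, a fast calcium sensor for transmitter release, had 3.12, 5.49 and 20.2 CPM in dentate libraries against 59.9 to 61.4 CPM in layer V neurons and 1204 to 1264 CPM in cerebellar granule cells. Rims3, an active zone protein, had 10.8, 17.5 and 45.3 CPM against 204 to 221 CPM in layer V neurons. Grm4, a presynaptic metabotropic glutamate receptor, was 4.89-fold below interneurons, the nearest type, and reached 1331 CPM in cerebellar granule cells. Cntnap4, Cntn6 and Astn2, adhesion proteins of axons and migrating neurons, were 5.23-fold, 9.66-fold and 5.30-fold below the nearest type. The other named genes were Rnf152 (8.87-fold), Trim62 (4.88-fold), Nacc2 (3.64-fold), Armh4 (7.22-fold) and Plcxd2 (7.18-fold). Dentate replicate 3 was the highest dentate library for 14 of the 15 genes, and without it each of the 15 was still called against the mean of the other types. The contrasts of these genes with each single type are not given for that fit.

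**Figure D2:**
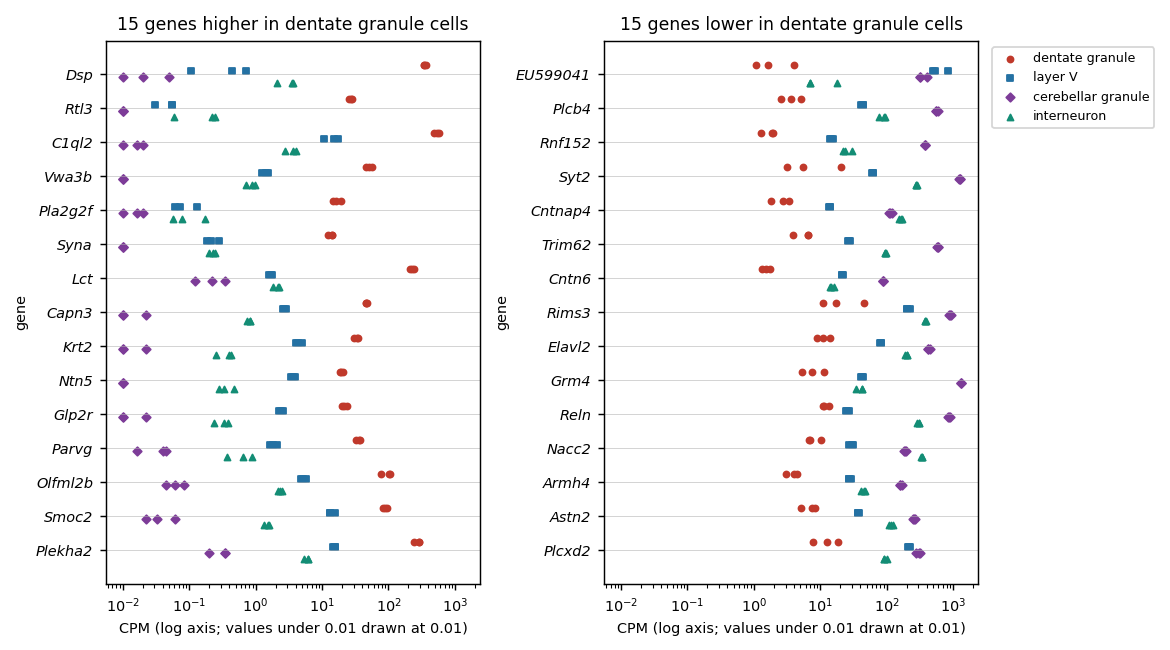
CPM (log axis) of the 15 leading genes higher (left) and lower (right) in dentate granule cells, with 1 point per library and values under 0.01 drawn at 0.01. The 30 genes were chosen by the size of this change, so that the gap between dentate and other libraries is a description, and the right panel shows the spread among dentate libraries of Syt2 (3.12 to 20.2) and Rims3 (10.8 to 45.3).

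Among 17 granule cell markers, 16 were higher than the mean of the other types and 15 higher than each of them, with a median log2 fold change of 5.46 against 0.04 over all genes tested. This list and those below were chosen with earlier results of these data known. Their counts, shares and medians are therefore a description. Tdo2, tryptophan dioxygenase, had 35.0, 29.8 and 35.0 CPM and was 33.7-fold above the nearest type. Calb1, the calcium buffer calbindin, had 507, 518 and 457 CPM and was 3.32-fold above interneurons (edgeR adjusted p = 5.2e-11). Trpc6, a cation channel, was higher than the mean but only 1.86-fold above interneurons. Gsg1l, an AMPA receptor auxiliary subunit, had 51, 52 and 56.6 CPM and lay below the 65.9 to 69.4 CPM of layer V neurons. Of 12 markers of immature granule neurons and progenitors, 4 were higher (Sox11, Neurod1, Nes and Mki67) and 4 lower (Calb2, Eomes, Sox2 and Tubb3) than the mean. These are 33.3% each, against 16.6% and 9.71% of all genes, and none was above every type. Sox11, a factor of young neurons, had 42.8, 42.1 and 39.4 CPM, above the 9 other libraries, which did not exceed 24.4 CPM. Tubb3, a tubulin common to young neurons, had 136, 177 and 232 CPM and was 2.35-fold below the nearest type. Dcx, doublecortin of newborn neurons, had 7.72, 5.70 and 6.58 CPM, below the 20.7 to 24.9 CPM of interneurons and above the 0.923 to 1.56 CPM of cerebellar granule cells, and was not called against the mean (log2 fold change 0.03, SE 0.12).

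Of 68 transcription factors of neuronal identity tested, 23 were higher and 21 lower than the mean of the other types (33.8% and 30.9%, against 16.6% and 9.71% of all genes). Their median log2 fold change was 0.10. Against each type 10 were higher (14.7%, against 4.28% of all genes) and 3 lower (4.41%, against 2.44%). Beside Prox1 these were Bcl11b, a zinc finger protein shared with layer V neurons, at 537, 518 and 457 CPM against 152 to 161 CPM there, and Zbtb20, a repressor needed for hippocampal development, at 666, 577 and 547 CPM and 6.05-fold above the nearest type. Rfx3, a regulator of cilia genes, had 310, 294 and 274 CPM and was 8.52-fold above layer V neurons (edgeR adjusted p = 7e-15). Emx2, a patterning gene of the medial pallium, was 12.5-fold above the nearest type, and Glis3, a zinc finger protein, was 16.9-fold above it. Bhlhe22 (3.78-fold), Foxo1 (6.82-fold), Smad3 (2.39-fold) and Nr3c2, the mineralocorticoid receptor that binds corticosterone (4.74-fold), completed the list.

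The 3 factors below every type were Id2, which sequesters basic helix-loop-helix factors, Cux2, an upper-layer cortical homeobox gene, and Rora, a nuclear receptor. Id2 had 19.4, 20.1 and 23.4 CPM against 107 to 157 CPM in the 9 others. Cux2 had 6.28, 8.14 and 19.3 CPM and Rora 18.6, 19.1 and 32.4 CPM, with dentate replicate 3 highest in both.

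Of 48 genes of the mossy fibre synapse and of release, 20 were higher and 11 lower than the mean of the other types (41.7% and 22.9%, against 16.6% and 9.71% of all genes). Their median log2 fold change was 0.61, and 6 genes lay above and 6 below every type (12.5% each, against 4.28% and 2.44% of all genes). C1ql3, the partner of C1ql2, had 608, 610 and 572 CPM against 265 to 281 CPM in layer V neurons. Grik4, a high-affinity kainate receptor subunit, had 55.9, 53.4 and 58.5 CPM and was 2.63-fold above layer V neurons. Doc2b, a calcium sensor of spontaneous release, was 5.65-fold above them with 358, 370 and 320 CPM, and Stxbp6, a syntaxin-binding protein, was 4.21-fold above interneurons. Sema5a, a transmembrane semaphorin, had 519, 482 and 424 CPM and was 6.18-fold above cerebellar granule cells.

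Below every type were the release genes Syt2 and Rims3, described above, Cplx1, a complexin that clamps and triggers vesicle fusion, Cadps2, a priming factor of dense-core vesicles, Nrxn3, a presynaptic neurexin, and Nectin3. Cplx1 had 283, 322 and 358 CPM against 971 to 1042 CPM in cerebellar granule cells and 2142 to 2239 CPM in interneurons. Nrxn3 had 84.1, 88.9 and 93.3 CPM and was 3.04-fold below layer V neurons. Slc30a3, the transporter that loads zinc into vesicles, had 201, 206 and 189 CPM, and layer V neurons had 182 to 190 CPM, so that the 2 ranges overlapped (log2 fold change 0.09, SE 0.07). Of 23 genes for zinc handling and metallothioneins, 5 were higher (21.7%) and 1 lower (4.35%) than the mean, against 16.6% and 9.71% of all genes, with a median log2 fold change of 0.45. Mt1 (2.48-fold above interneurons) and Slc39a8, a zinc importer at about 1 CPM in dentate libraries, were above every type and none was below.

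Of 36 glutamate receptor genes, 19 were higher and 8 lower than the mean of the other types (52.8% and 22.2%, against 16.6% and 9.71% of all genes). Their median log2 fold change was 1.05. Against each type, 3 were higher and 5 lower (8.33% and 13.9%, against 4.28% and 2.44% of all genes). Grin2a, an NMDA receptor subunit, had 461, 470 and 446 CPM and was 2.36-fold above layer V neurons, and Grm2, a presynaptic inhibitory receptor, had 316, 359 and 292 CPM and was 2.82-fold above them. Gria4, an AMPA receptor subunit common in interneurons and cerebellum, had 15.2, 16.2 and 19.1 CPM and was 4.05-fold below layer V neurons (edgeR adjusted p = 1.5e-11). Cacng2, stargazin, which carries AMPA receptors to the membrane, was 2.54-fold below the nearest type. Grik4 was also above every type, and Grm4 and Grin3b were below every type, with Grin3b under the floor of 3 counts in each dentate library.

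Of 13 GABA-A receptor subunits, 5 were higher (38.5%) and 3 lower (23.1%) than the mean, against 16.6% and 9.71% of all genes, with a median log2 fold change of -0.03. Gabra5, a subunit of extrasynaptic receptors of the hippocampus, was above every type (7.69% of the list, against 4.28% of all genes) at 180, 187 and 158 CPM against 66.8 to 70.0 CPM in layer V neurons, and none was below every type. Gabra4 had 187, 167 and 159 CPM against 86.3 to 88.0 CPM in layer V neurons.

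Of 55 potassium, HCN and sodium channel genes, 19 were higher and 9 lower than the mean (34.5% and 16.4%, against 16.6% and 9.71% of all genes). Their median log2 fold change was 0.26, and 7 lay above every type and 4 below (12.7% and 7.27%, against 4.28% and 2.44% of all genes). Above were Kcna4, a subunit of A-type channels, which was 2.08-fold above layer V neurons, and Kcnip2, an accessory subunit of A-type channels, which had 227, 226 and 219 CPM and was 2.29-fold above interneurons. Inward rectifiers that hold cells at negative potentials were also in this group, with Kcnj2 at 20.2, 23.9 and 20.4 CPM (2.23-fold) and Kcnj6 at 86.8, 93.3 and 78.3 CPM (2.13-fold). The sodium channel subunits Scn3a and Scn3b were 4.25-fold and 2.78-fold above interneurons, and Kcnn3, a calcium-activated potassium channel, was 2.54-fold above layer V neurons. Those below every type included Scn1a, the sodium channel of fast-spiking neurons, at 24.5, 20.3 and 34.8 CPM against 96.9 CPM or more, Kcna2 (3.00-fold) and Kcnt1, a sodium-activated potassium channel (3.64-fold).

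Of 41 genes for calcium entry and buffering, 19 were higher and 8 lower than the mean (46.3% and 19.5%, against 16.6% and 9.71% of all genes). Their median log2 fold change was 0.70. Against each type, 3 were higher and 4 lower (7.32% and 9.76%, against 4.28% and 2.44% of all genes). Cacna1h, a low-threshold calcium channel, had 281, 297 and 252 CPM and was 5.52-fold above layer V neurons, while Ryr1, a calcium release channel best known from muscle, was 2.79-fold above them. Vsnl1, a neuronal calcium sensor, had 193, 210 and 302 CPM and was 3.04-fold below interneurons, and Pvalb and Cacna2d2 were also below every type. Parvalbumin was at 0.563, 0.936 and 1.35 CPM in dentate libraries.

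**Figure D3:**
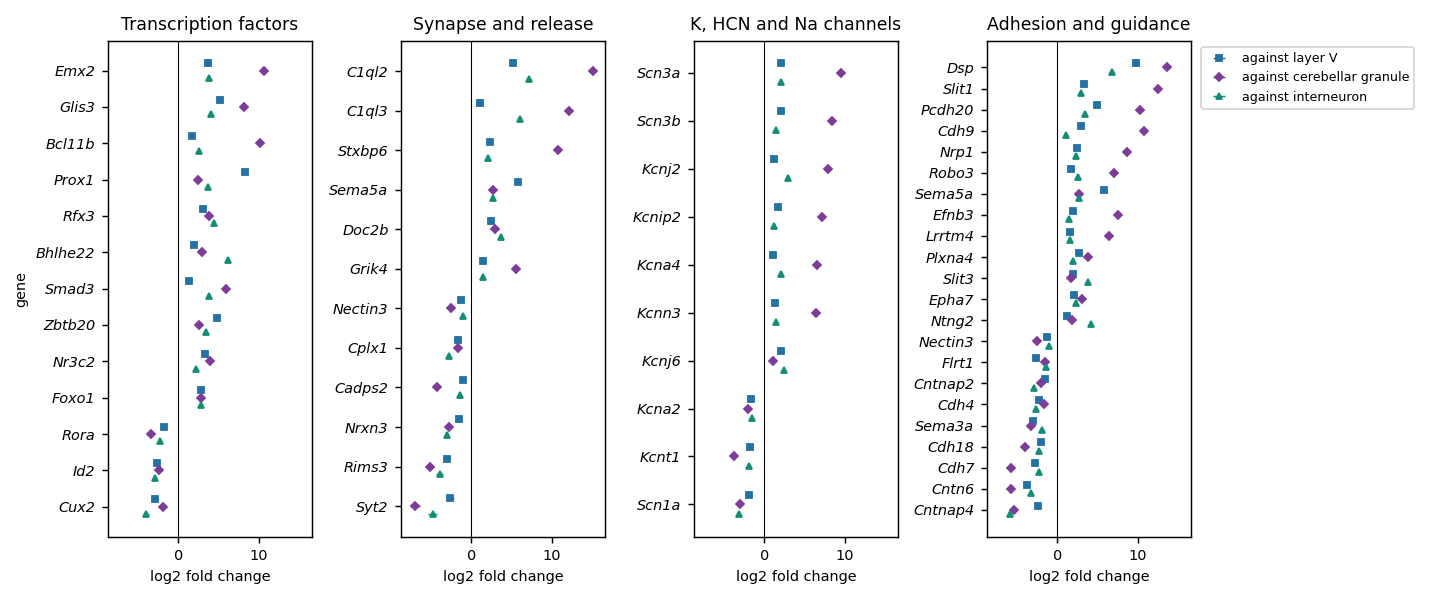
Log2 fold change (with SE bars, many smaller than the symbols) of dentate granule cells against each of the 3 other neuronal types, for genes of 4 lists that passed the test in the same direction against all 3. Genes near 0 counts in cerebellar granule cells, such as C1ql2, have fitted values against that type that depend on the prior count.

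Of 85 adhesion and guidance genes tested, 34 were higher and 18 lower than the mean (40.0% and 21.2%, against 16.6% and 9.71% of all genes). Their median log2 fold change was 0.60, and 13 lay above every type and 9 below (15.3% and 10.6%, against 4.28% and 2.44% of all genes). Above were the axon repellents Slit1, at 476, 460 and 454 CPM (7.29-fold above interneurons), and Slit3 (3.30-fold), and the receptors Plxna4 (3.87-fold), Nrp1 (4.92-fold), Robo3 (3.33-fold) and Epha7 (4.02-fold). Pcdh20, a protocadherin, had 294, 269 and 277 CPM and was 11-fold above interneurons. Cdh9, a cadherin that pairs dentate axons with CA3 cells, had 59.2, 57.2 and 58.2 CPM against 26.6 to 29.1 CPM in interneurons, and Lrrtm4, a postsynaptic organizer, was 2.82-fold above layer V neurons. Dsp, Sema5a, Efnb3 and Ntng2 completed the higher set. Below were Cntnap4, Cntn6, Cntnap2 (3.01-fold below layer V neurons), the cadherins Cdh4, Cdh7 and Cdh18, Nectin3, Sema3a and Flrt1.

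Of 35 genes for neuropeptides, granins and neurotrophins, 11 were higher and 11 lower than the mean (31.4% each, against 16.6% and 9.71% of all genes), with a median log2 fold change of 0.14, or 0.06 with types without counts at the floor. Pdyn lay above every type and Scg5 below every type, shares of 2.86% each, against 4.28% and 2.44% of all genes. Pdyn, the precursor of dynorphin, had 86.7, 91.2 and 79.3 CPM in dentate libraries, 8.84, 8.49 and 26.4 CPM in interneurons and 7.04 to 9.25 CPM in layer V neurons. Scg5, a chaperone of prohormone convertase, had 61.3, 63.8 and 81.0 CPM against 176 CPM or more in the others. Bdnf, a neurotrophin, had 64.3, 66.5 and 66.1 CPM and was 1.30-fold above layer V neurons, which had 48.8 to 52.0 CPM.

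Of 25 activity-regulated genes, 11 were higher (44.0%) and 6 lower (24%) than the mean, against 16.6% and 9.71% of all genes, with a median log2 fold change of 0.15. The share above every type (4.0%) was near that of all genes (4.28%), and 12.0% were below every type against 2.44%. Fosl2 was above every type and Fos, Ier2 and Dusp1 below every type. Fos, the immediate early transcription factor, had 2.91, 4.50 and 3.56 CPM in dentate libraries, and the other types spread widely, from 5.92 to 41.6 CPM in interneurons and from 27.8 to 51.3 CPM in layer V neurons. Dusp1, a phosphatase of MAP kinases, had 2.78, 5.23 and 5.36 CPM and was 5.72-fold below interneurons. Arc and Npas4, which respond to synaptic activity, were not called. Arc had a log2 fold change of -0.65 (SE 0.19, edgeR adjusted p = 0.014), short of the 2-fold threshold. Its log2 fold change was -1.59 (SE 0.23) against layer V neurons and 0.19 (SE 0.23) against interneurons. Npas4 had a log2 fold change of -0.12 (SE 0.54).

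Markers of neighbouring hippocampal neurons were counted as well. Of 6 CA1 markers, 4 were higher than the mean (66.7%, against 16.6% of all genes), and Fibcd1 was above every type at 115, 135 and 116 CPM against at most 22.4 CPM. The CA1 list nevertheless summed to 735.0 to 779.6 CPM in layer V neurons, above every dentate library. Of 9 CA2 and CA3 markers, 6 were higher and 2 (Coch and Nectin3) lower than the mean (66.7% and 22.2%, against 16.6% and 9.71% of all genes). The CA2 and CA3 list summed to 334.8 to 384.3 CPM in dentate libraries and to at most 261.8 CPM in the 9 others. Nectin3 was below every type, and Amigo2 and Iyd were above every type at no more than 13.7 and 3.5 CPM. Of 6 mossy cell markers 2 were higher and 2 lower than the mean (33.3% each, against 16.6% and 9.71% of all genes), and none was beyond every type. Their sum was 49.4 to 70.0 CPM in dentate libraries, below the 9 others. Calb2 in this list had 3.07, 14.8 and 1.35 CPM in dentate libraries against 1287 to 1310 CPM in cerebellar granule cells. The sum is therefore not particular to mossy cells. Kl, klotho, which the choroid plexus and some neurons make, had 39.2, 41.4 and 42.7 CPM in dentate libraries against 4.94 to 8.22 CPM in interneurons, while Ttr differed between these 2 types by less than their spread (log2 fold change -0.33, SE 0.70).

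Transcripts were tested separately, because the files give an estimate for each. Of 50374 transcripts tested, 8245 (16.4%) were higher and 3627 (7.2%) lower than the mean of the other types (edgeR quasi-likelihood test, same thresholds). Retained-intron transcripts leaned to the higher side, with 1379 of 7475 (18.4%) higher and 246 (3.29%) lower, while protein-coding transcripts had 5202 of 31571 (16.5%) higher and 2608 (8.26%) lower. Retained introns took 2.86, 2.48 and 3.04% of TPM (transcript abundance corrected for length and library size) in the dentate libraries and 2.57 to 2.99% in the others. The nuclear lncRNA Malat1 had 614.6, 213.1 and 419.8 CPM in dentate replicates 1, 2 and 3 and 128.1 to 304.9 CPM elsewhere, so that replicate 2 lay within the range of the other types. Among protein-coding transcripts tested alone, a choice made after the data were seen, 5142 were higher and 2640 lower.

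A transcript can also change its share of a gene. Of 10984 genes with several tested transcripts, 1250 (11.4%) had at least 1 transcript whose share changed by at least 10 percentage points at an adjusted p of at most 0.05 (edgeR diffSpliceDGE), with 924 transcripts higher and 723 lower of 43132 (2.14% and 1.68%). Without dentate replicate 3, 1159 genes had such a change, and 6887 transcripts were higher and 3716 lower. In genes at 5 TPM or more in every type, 767 transcripts of 660 genes passed this and the transcript test, and 536 of these genes were not themselves called. In 191 of the 660 the most abundant transcript in dentate granule cells was not the most abundant one over the other types.

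Coding exons that carry such changes are shown because they are stretches by which the transcripts of 1 gene differ. Each is given on the transcript strand with 15 bases of the neighbouring exons in lower case and the exon in capitals (GRCm38, GENCODE M21, all on the minus strand).
Ttc7b-206 exon, chr12:100340497-100340547: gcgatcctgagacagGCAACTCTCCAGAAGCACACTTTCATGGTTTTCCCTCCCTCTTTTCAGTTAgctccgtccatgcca
Cadps-201 exon, chr14:12486525-12486593: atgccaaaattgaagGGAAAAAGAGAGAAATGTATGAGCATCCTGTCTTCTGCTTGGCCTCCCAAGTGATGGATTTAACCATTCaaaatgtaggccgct
Cadps-203 exon, chr14:12468346-12468366: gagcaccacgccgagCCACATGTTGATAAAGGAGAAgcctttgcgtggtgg
Clk1-201 exon, chr1:58420121-58420211: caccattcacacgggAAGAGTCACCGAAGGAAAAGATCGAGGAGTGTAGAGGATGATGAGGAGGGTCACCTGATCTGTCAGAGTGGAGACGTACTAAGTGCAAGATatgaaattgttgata

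Ttc7b encodes a scaffold of the kinase complex that makes phosphatidylinositol 4-phosphate at the plasma membrane. The gene as a whole was not called (log2 fold change -0.10). Transcripts with the 51-base exon made up 79.4, 79.5 and 78.2% of the TPM of transcripts spanning it in dentate libraries. The share was 39.6 to 40.5% in layer V neurons, 35.3 to 40.3% in cerebellar granule cells and 18.6 to 23.8% in interneurons. Ttc7b-206, which has the exon, was higher (log2 fold change 1.26, SE 0.07, edgeR adjusted p = 1.1e-07) and Ttc7b-201, which lacks it, was lower (-1.71, SE 0.06, edgeR adjusted p = 3.8e-09).

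Cadps encodes CAPS1, a priming factor for dense-core vesicles. Transcripts with its 69-base exon made up 47.9, 50.3 and 48.6% in dentate libraries and 16.8 to 23.0% in the 9 others. The 21-base exon showed the opposite order, with 13.4, 15 and 18.2% in dentate libraries and 52.6 to 70.0% elsewhere. Both percentages count Cadps-208 as lacking the exon, a short transcript whose 1207 bases are all annotated as coding. It held 35.6, 33.2 and 29.7% of the gene in dentate libraries and 10.1 to 19.4% in the others. Cadps-203 fell by 2.73 on the log2 scale (SE 0.10, edgeR adjusted p = 8.7e-09), while the gene as a whole fell by 0.98. In Clk1, a kinase that phosphorylates splicing factors, the 91-base exon was included in 45.3, 33.9 and 25.5% in dentate libraries and in 66.7% or more of the others, and dentate replicates differed more here than in the other 3 exons. The transcripts that could be scored for it held 61.7% of the gene's TPM in dentate libraries. The transcript Clk1-210, annotated as a target of nonsense-mediated decay, lacks this exon and held 30.8, 46.8 and 41.5% of the gene in dentate libraries against 5.22 to 22.8% elsewhere.

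Other transcripts differed by their start. Fgf13 encodes an intracellular fibroblast growth factor homologue that binds voltage-gated sodium channels, and its transcripts begin at separate first exons. The first coding exon of Fgf13-201 is shown in capitals with 15 bases of the next exon in lower case (chrX:59133877-59134063, GRCm38, minus strand), because transcripts with this start made up most of the gene in dentate libraries.
Fgf13-201 first coding exon: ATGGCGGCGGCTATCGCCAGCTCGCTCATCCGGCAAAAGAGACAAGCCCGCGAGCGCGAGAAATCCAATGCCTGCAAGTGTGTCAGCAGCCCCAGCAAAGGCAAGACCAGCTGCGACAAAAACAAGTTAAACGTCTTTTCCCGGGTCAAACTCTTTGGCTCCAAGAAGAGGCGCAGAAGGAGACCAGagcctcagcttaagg
Fgf13-201 took 97.0, 95.2 and 93.7% of the gene in dentate libraries, 96.6 to 96.9% in layer V neurons, 2.56 to 2.93% in cerebellar granule cells and 12.9 to 16.2% in interneurons. Dentate and layer V libraries overlapped, and both lay above the other types.

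Osbp2-201, from the gene of an oxysterol-binding protein, took 79.6, 74.6 and 69.4% of its gene in dentate libraries and 7.26 to 37.6% in the 9 others, where Osbp2-203, with a downstream start and a shorter coding sequence (1365 against 2724 bases), held 32.1 to 57.6%. Rapgef2-206, from the gene of an activator of Rap proteins, took 86.8, 82.9 and 78.0% against 17.7 to 65.1% elsewhere. Crmp1, a mediator of semaphorin signalling, used the upstream start of Crmp1-202 for 62.9, 63.9 and 63.3% of its TPM in dentate libraries and for 17.9 to 40.6% in the others, while Crmp1-201 took 19.8, 20.7 and 23.2% against 53.9 to 78.0%. Trim2-203, from a ubiquitin ligase gene, took 64.7, 67.3 and 66.7% against 13.7 to 49.9%. Map4k5-203 (67.0 to 80.9% against 1.01 to 59.1%), Acsl4-201 (83.9 to 88.7% against 11.7 to 58.8%) and Slc25a25-205 (71.1 to 78.2% against 7.79 to 54.8%) were also higher without overlap.

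Over the 20 transcripts named by the rule, 9 of the 10 higher and 7 of the 10 lower had dentate shares that did not overlap the other 9 libraries, against 5.5% and 3.83% of all transcripts tested for usage. The rule chose them by the size of this same change, so these counts are a description. The exceptions were Fgf13-201, Ciapin1-201, Olfm3-201 and Zfp267-201, and Ciapin1-201 took 11.2 to 15.6% in dentate and 14.5 to 18.6% in layer V libraries against 63.2% or more in the rest. Synpo-202, from the gene of synaptopodin, a protein of the spine apparatus, took 84.1, 87.6 and 74.8% in dentate libraries, but interneurons ranged from 19.7 to 60.5%. Rufy2-204 (26.6 to 33.1%) and Uhmk1-203 (20.7 to 24%) were low in dentate libraries against 60.9% or more and 44.7% or more, and the lncRNA transcript Tug1-207 took 35.3, 36.3 and 43.7% against 47.0 to 92.5%. Syne1-207, an annotated retained-intron transcript of the nesprin-1 gene, took 68.5, 69.7 and 71.0% against 55.7 to 58.8% in layer V neurons and less in the others.

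**Figure D4:**
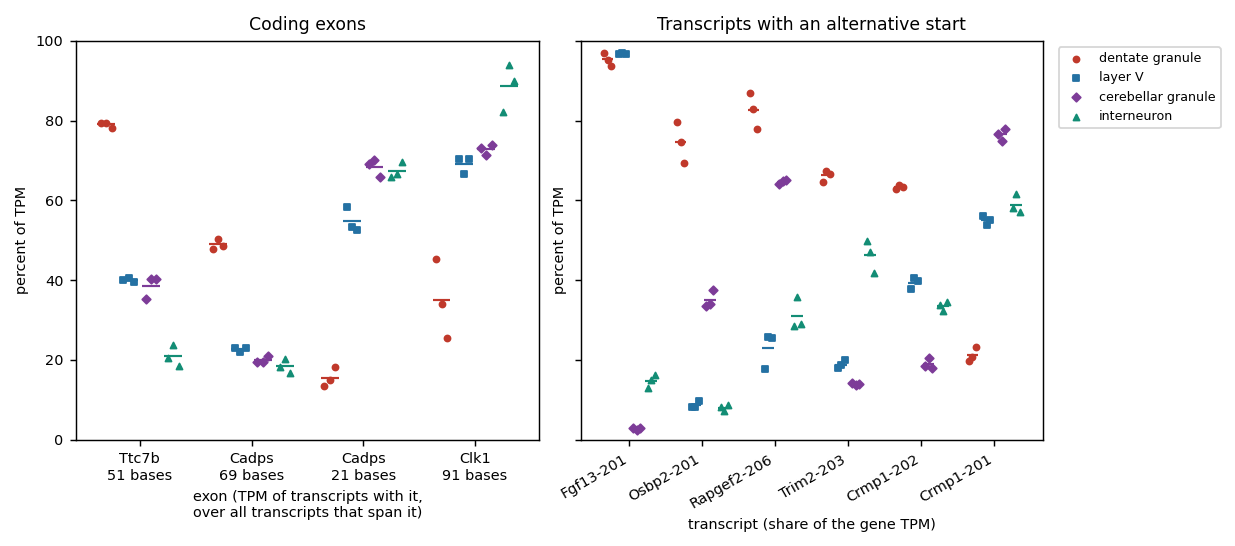
Left, percent of TPM from transcripts with each of 4 coding exons, over all transcripts that span it. Right, share of the gene's TPM of 6 transcripts with alternative starts. Points are libraries and bars are means of 3, and the dentate points for Ttc7b (78.2 to 79.5%) and Osbp2-201 (69.4 to 79.6%) lie above all others, while Fgf13-201 overlaps layer V neurons.

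Genes above every type were set beside all genes for features that the test had not used. The 660 protein-coding genes above every type with a value had a median coding length of 1671 bases (quartiles 1077 and 2832) and the 370 below had 1312 (827 and 2392), against 1410 (891 and 2274) over 15096 protein-coding genes tested with a value. The median span of the gene was 38.5 kb above and 39.1 kb below, against 25.0 kb, and the GC content at the last position of codons was 63.4% and 65.1% against 61.1%. An E-box of the kind bound by neurogenic basic helix-loop-helix factors, CAGATG on either strand, stood in 14.1% of 567 RefSeq promoters (GRCm38.p6) of genes above every type, 12.5% of 320 below and 12.8% of all 12976, shares close to each other that were not tested. The Prox1 promoter held a single match, in capitals, and is shown as the window of the leading factor (chr1:190170778-190171077, minus strand).
Prox1 promoter: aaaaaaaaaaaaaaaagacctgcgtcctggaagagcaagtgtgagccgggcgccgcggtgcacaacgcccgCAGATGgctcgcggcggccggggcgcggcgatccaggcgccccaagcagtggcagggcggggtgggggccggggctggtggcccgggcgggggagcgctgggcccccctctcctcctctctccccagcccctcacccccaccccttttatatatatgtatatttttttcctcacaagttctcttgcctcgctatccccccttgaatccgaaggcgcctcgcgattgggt
The promoter windows of Dsp and C1ql2 did not hold these letters.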

How the data were processed

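Ribosome-bound mRNA was sequenced in 22 libraries from 18 biological replicates. Trimming by the authors used cutadapt 3.5, and quantification used kallisto 0.46.2 with GENCODE M24 transcripts (versions from the submitters' processing notes). The deposited tables give estimated counts and TPM for 142552 transcripts, without pooling of replicates. Kallisto divides reads shared by several transcripts by a model, so transcripts with near-identical sequence are less certain than genes.

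Estimated counts were summed over 55385 gene identifiers and rounded, and 12 neuronal libraries, grouped by their labels, were fitted in R 4.3.3 with edgeR 4.0.16 (TMM, filterByExpr, quasi-likelihood F test, diffSpliceDGE for transcript usage) without covariates. The study's own test, sleuth with batch as a covariate, was not run. A feature was called with a Benjamini-Hochberg adjusted p no higher than 0.05 and a 2-fold change, or 10 percentage points of share. Replicates carry separate labels, but whether each came from its own animal is stated only for the pooled interneurons, so p-values measure the spread between these libraries. A count of 3 corresponded to 0.0454 to 0.078 CPM, and such floors cover counting error only. On simulated data the gene test recovered 98 of 100 genes changed 4-fold, with 4 unchanged genes of 18587 called. The transcript test recovered 81 of 100 transcripts changed 4-fold, with 7 unchanged of 50374 called, and the usage test recovered 68 of 108 transcripts with a changed share, with 31 unchanged of 36335 tested called. Counts were simulated for each feature independently, without error in dividing reads among transcripts, and changed features were drawn above a minimum count. These figures are therefore not the error rates of the tests on the real data.

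Named genes were the 15 with the largest change in each direction among those called against every type, with a mean of at least 10 CPM in dentate libraries or in each other type, leaving out Gm and Rik symbols. Named transcripts were the 10 with the largest share change in each direction called by both transcript tests, in genes at 5 TPM or more in every type. List members were also named. Some list members are counted but not reported here by name. The members and lists were chosen with earlier results of these data known. Alternatives included DESeq2 1.42.0, limma 3.58.1 on log2(TPM + 0.5), other filters, batches and samples, and leaving out each library. Exons and gene positions came from GENCODE M21 and promoters from RefSeq, both on GRCm38.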

Additional observations from a re-analysis of the deposited data

How the results depend on the processing

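Of the counts of called features under the alternatives, 133 stayed within 1.5 times the reported count and 4 did not. With limma on log2(TPM + 0.5) of genes, 1975 genes were higher and 1244 lower than the mean, and 702 were higher and 242 lower than each type, against 796 and 454. With limma on the logit of the share, 2185 genes had a usage change, against 1250. With protein-coding transcripts only, chosen after seeing the data, 5142 transcripts were higher, which follows from testing fewer transcripts. Without interneurons (batch 1 only, then with sex as a covariate) the change of Gad2 turned from -1.85 to 0.65 and 0.66 on the log2 scale, and that of Neurod1 from 1.07 to -1.37 and -1.38, because the mean then lacked a type in which Gad2 was high and Neurod1 low. Leaving out each library gave 3002 to 3312 genes higher and 1648 to 1968 lower than the mean, 769 to 877 and 395 to 544 against each type, 6560 to 8507 and 3260 to 3842 transcripts, and 1027 to 1224 genes with a usage change. With the batch 2 libraries of excitatory types added and batch as a covariate, 3240 genes were higher and 1787 lower than the mean. That fit counted both libraries of a replicate separately. With the batch 2 library in place of its batch 1 library, 3118 were higher and 1815 lower. With the replicate number as a block, 3049 genes were higher and 1790 lower, and 785 and 455 against each type. Same-numbered libraries correlated between -0.029 and 0.122 in their deviations from the group means, and differently numbered ones between -0.131 and 0.074. Deviations within a group cancel out, so these overlapping ranges cannot decide whether libraries were paired. The numbers were not taken as pairs. For named genes 2477 values kept their call or the lack of one, and where a gene was called in neither fit its direction could differ. Another 3 lost the call (Neurod1 at 0.92, Bdnf at 0.63 in both fits without interneurons). The 4 values counted as reversed were of called genes, Gad2 and Neurod1 in those fits. For named transcripts 336 kept direction and call, and Zfp267-201 lost its call with the batch 2 library (-31.9 points, edgeR adjusted p = 0.0791). Genes at or under 3 counts in a library have no order among themselves.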

Other observations

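Layer V replicate 1 was sequenced in both batches, and its labels differ in sex. The batch 1 library, labelled female, had 12.86 CPM of Xist and 0.15 CPM of the Y-linked gene Ddx3y. The batch 2 library, labelled male, had 12.3 CPM of Xist and 0.04 CPM of Ddx3y. Only the batch 1 library entered the main comparisons.

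Meg3, a maternally expressed lncRNA, had 615.8, 205.2 and 596.4 CPM in dentate replicates 1, 2 and 3, and Miat, another nuclear lncRNA, had 129.9, 49.1 and 119.1 CPM, so that replicate 2 was the lowest of the dentate libraries for both, as it was for Malat1.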
